A study of Mus musculus with 6 samples.

Results

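The genes described are 10 that store, import, export or release cellular iron: the ferritin chains Fth1 and Ftl1, the transferrin receptor Tfrc, the iron transporters Slc11a2 and Slc40a1, the haem oxygenase Hmox1 and the metalloreductases Steap1, Steap2, Steap3 and Steap4. They were taken by symbol from the 55367 rows of an unfiltered gene count table, of which 15055 were tested, all 10 among them. The set was selected on gene function with measured values of these libraries in view, among them the level of Fth1 in 4T1 medium, so the folds below describe the genes and do not stand as independent evidence for the set. The study sequenced messenger RNA of a fibroblastic reticular cell (FRC) line of the mouse, FRCs being stromal fibroblasts of lymph nodes, in 3 groups of 2 libraries. The cells of each group had spent 96 h in medium that another culture had conditioned for 24 h, with renewal every 48 h and 2% serum added. The medium came from 4T1 cells (4T1 medium), a mouse mammary carcinoma line known to metastasise, from 67NR cells (67NR medium), a line of the same tumour known not to, or from FRCs themselves (control medium). All groups are thus 1 cell line in conditioned medium and none had fresh medium, so secreted factors and nutrients used up during conditioning cannot be told apart. Separate cultures are not named in the labels, so the p-values take in only the spread between 2 libraries a medium, and that spread may be technical.

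Cells take up transferrin-bound iron through the transferrin receptor, reduce it in endosomes with STEAP metalloreductases and carry it into the cytosol with the transporter encoded by Slc11a2. Iron that is not used is stored in the ferritin shell, made of heavy chains (Fth1), which oxidise iron, and light chains (Ftl1), which help the mineral form, or leaves through ferroportin (Slc40a1), the cell's iron exporter. Several of these messages carry an iron-responsive element, a hairpin bound by the iron regulatory proteins when iron is scarce. In a 5′ untranslated region (UTR) the bound hairpin blocks translation, and in the 3′ UTR of Tfrc it protects the message from decay, so messenger RNA and protein of these genes need not move together.

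Hairpins of this kind were found in 5 of the 10 genes, in transcripts of GENCODE M21 (GRCm38). The search took the sense strand for a C, 5 bases of stem, the loop CAGTGN (N being A, C or T) and 5 bases pairing with the first stem arm, with G-T pairs allowed and up to 1 base unpaired. They are printed because they set Fth1, Ftl1 and Slc40a1, with 1 in the 5′ UTR each, apart from Tfrc, with 4 in the 3′ UTR. Each line gives 30 bases of the transcript's strand, with the hairpin from the C to the end of the second stem arm in capitals.
Fth1, 5′ UTR, chr19:9982731-9982760, plus strand: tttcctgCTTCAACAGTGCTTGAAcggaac
Ftl1, 5′ UTR, chr7:45459779-45459808, minus strand: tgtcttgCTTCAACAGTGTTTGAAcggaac
Slc40a1, 5′ UTR, chr1:45925465-45925494, minus strand: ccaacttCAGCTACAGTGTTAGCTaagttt
Tfrc, 3′ UTR, chr16:32631218-32631247, plus strand: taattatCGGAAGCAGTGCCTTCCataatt
Tfrc, 3′ UTR, chr16:32631597-32631626, plus strand: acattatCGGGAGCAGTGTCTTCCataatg
Tfrc, 3′ UTR, chr16:32631662-32631691, plus strand: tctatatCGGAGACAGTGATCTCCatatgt
Tfrc, 3′ UTR, chr16:32631709-32631738, plus strand: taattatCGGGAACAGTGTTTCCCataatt
Slc11a2, 3′ UTR, chr15:100395153-100395182, minus strand: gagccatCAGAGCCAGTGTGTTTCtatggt

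The site of Slc11a2 left 1 of 5 stem bases unpaired and lay in a transcript of 4415 bases, and counts per gene do not separate transcripts with this end from those without. No match was found in the transcripts searched for Hmox1 or the 4 Steap genes. Over 21877 protein-coding genes, the same letters occurred in the 5′ UTR of 143 (0.654%) and in the 3′ UTR of 664 (3.04%), so a match alone is a description and not a shown site.

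Total counts per library lay between 13.6 M and 21.8 M (M, 1e6 counts), so 1 count stood for 0.0463 to 0.0743 counts per 1e6 (CPM), the unit used here after scaling by edgeR's trimmed mean of M-values (TMM). Of 10 markers of lymph node stroma, 8 had counts in every library, though Icam1 had only 1 to 7 and was not tested. The chemokines Ccl19 and Ccl21a had 0 counts in all 6. The list summed to 7895 to 8389 CPM in 4T1 medium, 15804 to 16618 CPM in 67NR medium and 14379 to 14967 CPM in control medium, most of it the collagen gene Col1a1 (6717 and 7104 CPM in 4T1 medium, 15613 and 14826 CPM in 67NR medium, 14099 and 13536 CPM in control medium). In 4T1 against control medium its 7 tested markers all passed an edgeR adjusted p of 0.05, beside 39.1% of all genes. Of these, 3 were higher (Pdgfra, Vcam1 and Ltbr) and 4 lower (Pdpn, Pdgfrb, Col1a1 and Col1a2). In 67NR against control medium 2 were higher (Pdgfra and Pdgfrb) and 2 lower (Pdpn and Col1a2), or 57.1%, beside 27.6% of all genes. In bulk RNA, fewer cells of a kind and less RNA per cell cannot be told apart for any gene below. Markers of tumour epithelium, the kind of cell that conditioned the 2 tumour media, summed to 0.811 and 0.218 CPM in 4T1 medium and 1.58 and 1.70 CPM in 67NR medium. In control medium, conditioned by FRCs, they summed to 2.39 and 2.01 CPM. Epcam was at 0 in all 6 libraries. Of 7 erythroid markers, 4 were at 0 in all libraries and the list summed to 2.28 to 3.43 CPM.

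In 4T1 medium against control medium, Slc11a2, Steap1 and Steap2 were higher and Ftl1, Tfrc and Slc40a1 lower past the threshold (adjusted p of 0.05 over all 15055 genes, edgeR quasi-likelihood), 6 of 8 genes with a median log2 fold change of 0.27. Fth1 and Steap4 stand outside this count, because the level of Fth1 in 4T1 medium was known at the choice of genes and because Steap4 entered the genes tested only through its counts in 4T1 medium. Both were higher, which is a description, and with them the median was 0.64. In the same comparison 39.1% of all genes passed, 19.9% as higher and 19.2% as lower, with a median of 0.01. In 67NR medium against control medium, 3 of the 10 passed, Fth1 as higher and Tfrc and Steap1 as lower, where 27.6% of all genes passed, 13% as higher and 14.6% as lower. That count, with a median of -0.02 against 0 over all genes, is near the background, and it was 5 when either 4T1 library was left out. In 4T1 medium against 67NR medium, 5 of the 8 genes other than Fth1 and Steap4 passed, where 43.4% of all genes did, 23.5% as higher and 19.9% as lower. Tfrc, Slc11a2, Steap1 and Steap2 were higher and Slc40a1 lower, with a median of 0.63 against 0.03 over all genes. Fth1 and Steap4 were higher there too, again as a description, and with them the median was 0.94. The genes were chosen with these data in view, and nothing is read from their counts. The comparisons with control medium share its 2 libraries, and those of 4T1 medium share its own, so their values are set side by side below and not counted as separate support.

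**Figure D1:**
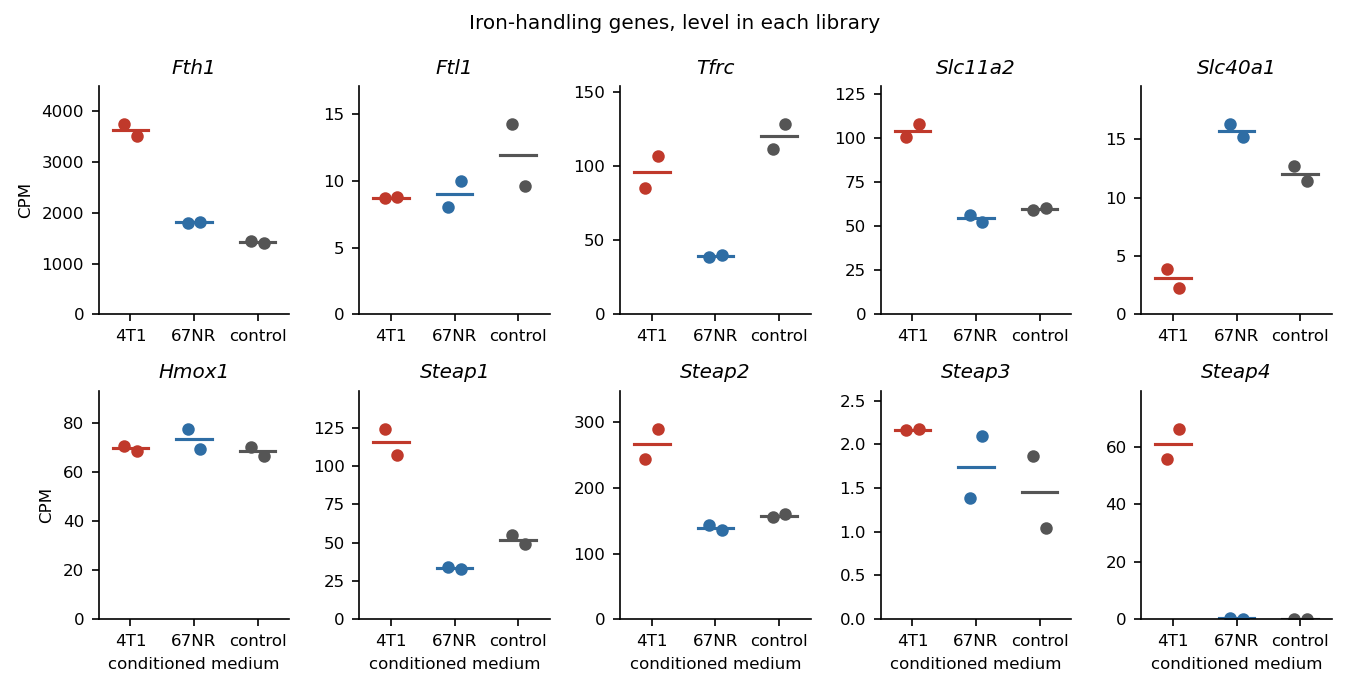
Level of each of the 10 genes in every library, in CPM on linear axes from 0, for cells in 4T1, 67NR and control medium. Points are the 2 libraries of a group and the line is their mean. Fth1, Slc11a2, Steap1, Steap2 and Steap4 are highest in both 4T1 libraries, Slc40a1 is lowest there, and Tfrc is lowest in both 67NR libraries.

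Ferritin heavy chain was the most abundant of these messages. Fth1 (chromosome 19, 9980598 to 9985098) had 3749 and 3507 CPM in 4T1 medium, 1807 and 1821 CPM in 67NR medium, and 1449 and 1413 CPM in control medium. Both 4T1 libraries lay far above the other 4, both 67NR libraries lay slightly above both control libraries, and no groups overlapped. Over all genes tested, the groups did not overlap for 67.4% in 4T1 against control medium and 67.6% in 67NR against control medium. For 4T1 against 67NR medium this share was 70.1%, so a lack of overlap, here and for the genes below, is common. The level of Fth1 in 4T1 medium was 2.53-fold that in control medium (log2 1.34, SE 0.06) and 2-fold that in 67NR medium (log2 1.00, SE 0.06). Both values use the 4T1 level that was known when the gene was chosen and are given as a description, without a test. In 67NR medium Fth1 rose 1.27-fold over control medium (log2 0.34, SE 0.06, edgeR adjusted p = 0.00153). The processed pseudogene Gm6977 on chromosome X, which shares 6.59% of the 50-base stretches of the Fth1 transcript, changed alike (log2 1.25 for 4T1 against control, 0.36 for 67NR against control and 0.89 for 4T1 against 67NR). Fth1 reads credited to that row cannot be told apart from its own.

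A set of 5 transcripts kept as signs of RNA quality stood higher in both tumour media than in control medium. It summed to 8864 and 9824 CPM in 4T1 medium, 7355 and 8878 CPM in 67NR medium, and 5021 and 6490 CPM in control medium, so the tumour media overlapped. Of the 5, 4 passed as higher in each tumour medium against control, beside 19.9% and 13% of all genes in 4T1 and 67NR medium. In 4T1 against 67NR medium 1 did, the nuclear RNA Neat1 (log2 1.12, SE 0.07), beside 23.5%. The part of such differences in the Fth1 values was not tested.

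Ferritin light chain did not follow the heavy chain. The Ftl1 row (chromosome 7, 45457944 to 45459884) held few counts, 8.72 and 8.77 CPM in 4T1 medium, 8.06 and 9.98 CPM in 67NR medium, and 14.3 and 9.66 CPM in control medium. Control replicate 1 stood apart at the top, and the other 5 libraries lay close together. Against control medium Ftl1 was lower in 4T1 medium, just inside the threshold (log2 -0.48, SE 0.18, edgeR adjusted p = 0.0489). Without control replicate 1 the difference was -0.16 and without control replicate 2 it was -0.71. Its size thus turned on which control library was kept, while leaving out any of the 4T1 or 67NR libraries gave -0.49 to -0.48. With all 6 libraries, the DESeq2 Wald test gave an adjusted p of 0.0998 for Ftl1, so the call is not firm. In 67NR medium the value against control medium was -0.44 (SE 0.17, edgeR adjusted p = 0.0778), and 4T1 against 67NR medium gave -0.04 (SE 0.18, edgeR adjusted p = 0.875).

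Most light-chain counts stood on other rows. Ftl1-ps1 on chromosome 13 and Ftl2-ps on chromosome 4 are copies, Ftl2-ps being annotated as a processed pseudogene, whose transcripts match that of Ftl1 over 99.6% and 98.7% of aligned bases, and 78.9% of the 50-base stretches of Ftl1 occur in transcripts of other genes. Of the counts on the light-chain rows together, the Ftl1 row took 1.07 to 1.63% per library, Ftl2-ps 62.5 to 65.2% and Ftl1-ps1 33.1 to 36.1%. Reads of the gene and of its copies cannot be told apart here, and so the Ftl1 row alone is uncertain.

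Ftl2-ps had 405 and 389 CPM in 4T1 medium, 487 and 470 CPM in 67NR medium, and 557 and 513 CPM in control medium, with no overlap between groups. It fell in 4T1 medium against control medium (log2 -0.43, SE 0.07, edgeR adjusted p = 0.000197), and Ftl1-ps1 fell by as much (log2 -0.44, SE 0.08, edgeR adjusted p = 0.000944). With the light-chain rows summed into 1, the light chain fell in 4T1 medium by 0.43 on the log2 scale against control medium (SE 0.07, edgeR adjusted p = 0.000309) and by 0.25 against 67NR medium (SE 0.07, edgeR adjusted p = 0.0116). For 67NR against control medium the summed value was -0.19 (SE 0.07, edgeR adjusted p = 0.0668). Summing the rows was chosen after the data had been seen.

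The ratio of heavy-chain to light-chain counts within a library does not depend on scaling between libraries. With the copies that carry a ferritin name (Ftl1-ps1, Ftl1-ps2, Ftl2-ps, Fth-ps2 and Fth-ps3) added to their parent genes it was 5.79 and 5.88 in 4T1 medium, 2.39 and 2.52 in 67NR medium, and 1.65 and 1.76 in control medium. All 3 groups were apart, with means of 5.83, 2.46 and 1.71. With Gm6977 also added to the heavy chain and the further copies Gm15590 and Gm12164 to the light chain, it was 6.14 and 6.27 in 4T1 medium, 2.56 and 2.68 in 67NR medium, and 1.76 and 1.87 in control medium. From the Fth1 and Ftl1 rows alone the ratio was 430 and 400 in 4T1 medium, 224 and 183 in 67NR medium, and 102 and 146 in control medium, which keeps the order of the media at a level set by the reads left on the Ftl1 row. With 2 libraries against 2, no permutation test can pass the threshold, and none is given.

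**Figure D2:**
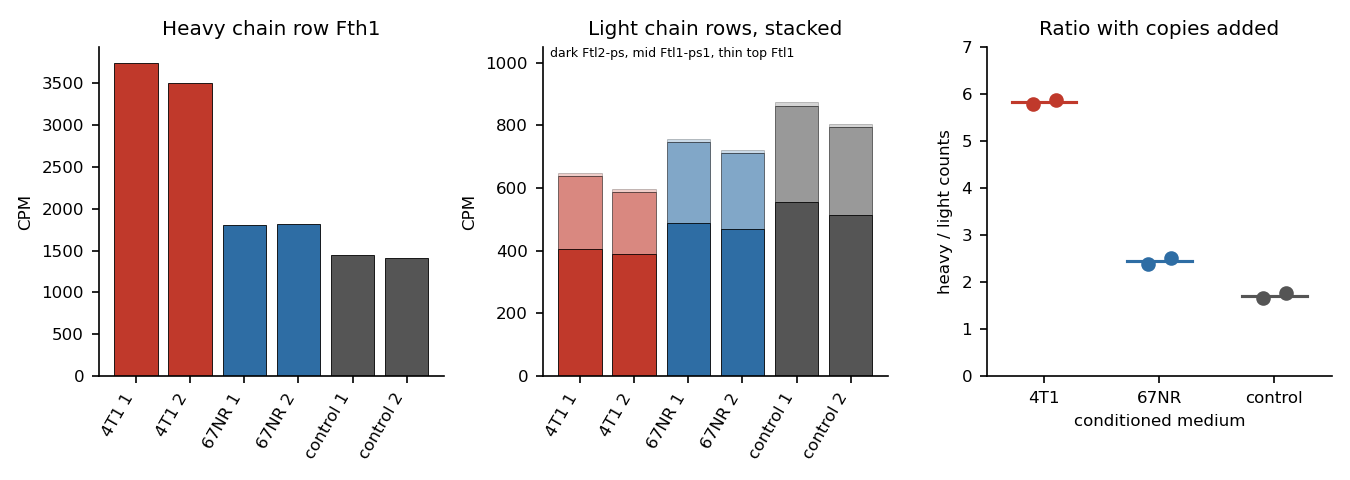
Ferritin heavy and light chain messages in each library. Bars in the first and second panels give the CPM of Fth1 and of the 3 light-chain rows stacked, and points in the third panel give the ratio of heavy to light counts with the copies of ferritin name added, with a line at the mean of 2 libraries. The heavy chain is highest in 4T1 medium, the light chain lowest there, and the ratio averages 5.83 in 4T1, 2.46 in 67NR and 1.71 in control medium.

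Uptake genes moved unlike each other. Tfrc (chromosome 16, 32608920 to 32632794), the receptor that brings in transferrin-bound iron, had 84.8 and 107 CPM in 4T1 medium, 38.9 and 39.8 CPM in 67NR medium, and 112 and 128 CPM in control medium. The 67NR libraries lay far below the other 4, and the 4T1 libraries lay just below control without overlap. In 67NR medium Tfrc fell to a level 3.04-fold below control (log2 -1.60, SE 0.10, edgeR adjusted p = 2.37e-07). In 4T1 medium it was slightly lower than in control (log2 -0.32, SE 0.10, edgeR adjusted p = 0.0232), a call that was lost without 4T1 replicate 1 (-0.17, edgeR adjusted p = 0.098) or without control replicate 2 (-0.22, edgeR adjusted p = 0.212). Between the tumour media it was 2.44-fold higher in 4T1 (log2 1.29, SE 0.10, edgeR adjusted p = 5.42e-07).

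Slc11a2 (chromosome 15, 100387898 to 100425072), also called DMT1, moves ferrous iron out of the endosome. Its level was 100.4 and 108 CPM in 4T1 medium, 56.4 and 52.4 CPM in 67NR medium, and 59.1 and 60.5 CPM in control medium. Both 4T1 libraries stood well above the other 4, while 67NR lay slightly below control. It rose 1.74-fold in 4T1 medium against control medium (log2 0.80, SE 0.07, edgeR adjusted p = 2e-06) and 1.92-fold against 67NR medium (log2 0.94, SE 0.07, edgeR adjusted p = 3.42e-07). For 67NR against control medium the log2 value was -0.14 (SE 0.07, edgeR adjusted p = 0.204).

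Ferroportin moved the other way. Slc40a1 (chromosome 1, 45908068 to 45926523) had 3.85 and 2.29 CPM in 4T1 medium, 16.3 and 15.2 CPM in 67NR medium, and 12.7 and 11.5 CPM in control medium. The 4T1 libraries were lowest by a wide margin and the 67NR libraries highest, with no overlap between groups. In 4T1 medium Slc40a1 fell to a level 4.03-fold below control medium (log2 -2.01, SE 0.19, edgeR adjusted p = 2.96e-06) and 5.24-fold below 67NR medium (log2 -2.39, SE 0.18, edgeR adjusted p = 2.82e-07). For 67NR against control medium it was 0.38 (SE 0.14, edgeR adjusted p = 0.0688). This value passed the threshold when the 4T1 libraries were left out of the fit (edgeR adjusted p = 0.0123). By the DESeq2 Wald test of all 6 libraries it did not (DESeq2 adjusted p = 0.189), so the call depends on the setting.

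Macrophages are a known site of high ferroportin, and a list of 8 of their markers summed to 4.93 and 4.96 CPM in 4T1 medium, 12.5 and 11.6 CPM in 67NR medium, and 7.06 and 8.47 CPM in control medium, the same order as Slc40a1. That order is that of Lyz2 (1.89 and 2.18 CPM in 4T1 medium, 9.13 and 8.86 CPM in 67NR medium, 4.62 and 5.87 CPM in control medium). Lyz2 was the 1 of 3 tested markers that passed in 4T1 against control medium (33.3%, beside 39.1% of all genes). Csf1r stood at a log2 value of -0.03 and Cd68 at 0.78 (SE 0.29 and 0.46). The defining markers Adgre1 and Fcgr1 were at 0 in all 6 libraries and Ptprc had at most 1 count in any. The part of these transcripts in the Slc40a1 values was not tested.

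Hmox1, which breaks haem down and frees its iron, did not pass in any comparison. It had 70.5 and 68.8 CPM in 4T1 medium, 77.7 and 69.5 CPM in 67NR medium, and 70.4 and 66.6 CPM in control medium, and all 3 groups overlapped. The log2 values were 0.02 for 4T1 against control, 0.10 for 67NR against control and -0.08 for 4T1 against 67NR, each with an SE of 0.08, and the smallest edgeR adjusted p was 0.347.

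The STEAP genes reduce ferric iron, and copper, before uptake, with the exception of Steap1, which lacks the domain that binds the electron donor NADPH. Steap1 (chromosome 5, 5736317 to 5749326) had 124 and 108 CPM in 4T1 medium, 34.1 and 32.6 CPM in 67NR medium, and 54.8 and 49.3 CPM in control medium. The 4T1 libraries were highest, 67NR lowest and control between, without overlap. It rose 2.22-fold in 4T1 medium against control medium (log2 1.15, SE 0.09, edgeR adjusted p = 3e-07), fell by 0.65 on the log2 scale in 67NR medium against control medium (SE 0.09, edgeR adjusted p = 0.000173), and stood 3.48-fold higher in 4T1 than in 67NR medium (log2 1.80, SE 0.09, edgeR adjusted p = 4.32e-09).

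Its neighbour on the chromosome, Steap2, had 244 and 290.3 CPM in 4T1 medium, 143 and 136 CPM in 67NR medium, and 156 and 160.1 CPM in control medium. Both 4T1 libraries were above the rest, and 67NR lay a little below control. Steap2 rose 1.69-fold in 4T1 medium against control medium (log2 0.76, SE 0.08, edgeR adjusted p = 7.5e-06) and 1.92-fold against 67NR medium (log2 0.94, SE 0.08, edgeR adjusted p = 7.76e-07). In 67NR against control medium its value was -0.18 (SE 0.08, edgeR adjusted p = 0.118), and it passed when the 4T1 libraries were left out of the fit (edgeR adjusted p = 0.0142). Steap3, the main endosomal ferrireductase of red cell precursors, was near the lower limit, with 2.16 and 2.18 CPM in 4T1 medium, 1.39 and 2.09 CPM in 67NR medium, and 1.87 and 1.04 CPM in control medium. It passed in no comparison (log2 0.52, 0.20 and 0.32 in the order used above, SE 0.33, 0.33 and 0.31, smallest edgeR adjusted p 0.242). Whether a difference of that size could be detected at this depth was not tested.

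Steap4 (chromosome 5, 7960457 to 7982213), a metalloreductase known for its induction by inflammatory cytokines, was counted almost wholly in the 4T1 libraries. It had 825 and 1216 counts in 4T1 medium, 9 and 3 counts in 67NR medium, and 2 and 1 counts in control medium. In CPM these were 55.8 and 66.2 in 4T1 medium, 0.417 and 0.146 in 67NR medium, and 0.104 and 0.0743 in control medium. At scaled library totals, 4T1 medium held 671 times the control level (95% counting interval 229 to 3258) and 216 times the 67NR level (123.5 to 419). The gene passed the filter on low counts only through the 4T1 libraries, so these ratios are a description and no test is given. The ratio of 67NR to control medium was 3.11 (0.838 to 17.2), and its interval includes no difference. Intervals cover counting error only. Steap4 was the 1 gene of the 10 that the authors' filtered table leaves out.

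The 235 bases before the GENCODE start of Steap4 are printed because this gene had the largest fold of the 10 (chr5:7960222-7960456, plus strand, RefSeq promoter window of GRCm38.p6, letters matching the STAT motif TTCNNNGAA or the NF-kB motif in capitals).
Steap4: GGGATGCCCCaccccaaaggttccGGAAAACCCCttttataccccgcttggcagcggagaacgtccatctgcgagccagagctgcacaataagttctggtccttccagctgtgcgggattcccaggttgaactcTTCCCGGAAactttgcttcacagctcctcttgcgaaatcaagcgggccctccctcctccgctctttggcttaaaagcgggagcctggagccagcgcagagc

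Counted from the RefSeq start, the STAT letters lie 116 bases before it and the NF-kB letters 250 and 226 bases before it, on windows of 300 bases searched on both strands. Of 32851 such windows of all genes, 8.3% hold the STAT letters and 8.46% the NF-kB letters, so either occurs in many genes and neither shows binding. Windows existed for 7 of the 10 genes. NF-kB letters also lay in windows of Ftl1 (15 bases before the start), Steap2 (148) and Steap3 (176) and STAT letters in a Steap2 window (135), while those of Fth1, Tfrc and Steap1 held neither. The antioxidant response element TGACNNNGC, held by 12.4% of windows, occurred once, in a Steap2 window 25 bases before its start.

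**Figure D3:**
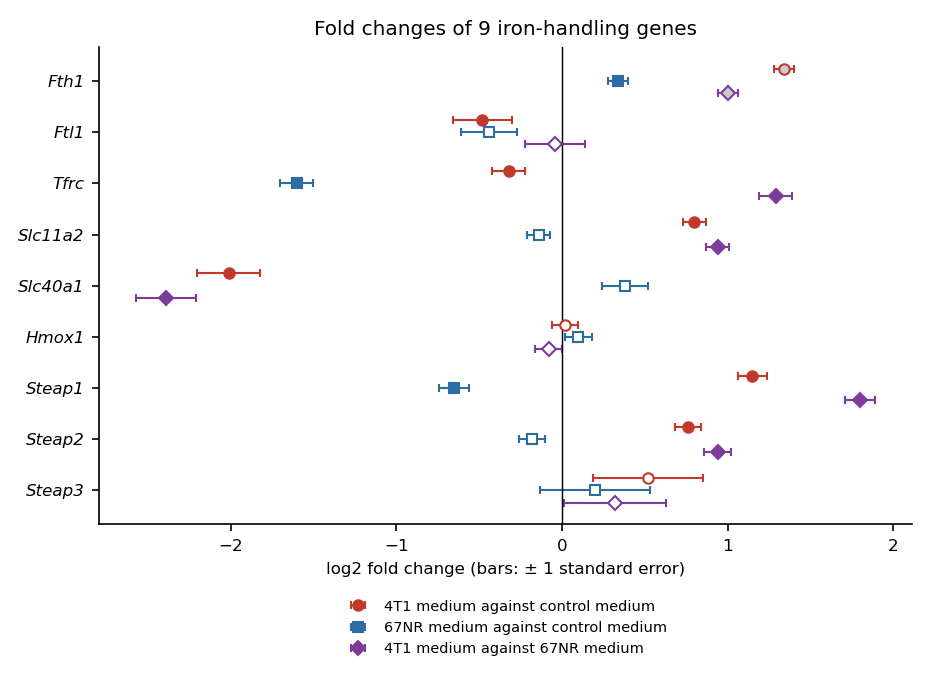
Log2 fold change of 9 of the genes, with bars of 1 standard error on each side, for 4T1 against control medium (circles), 67NR against control medium (squares) and 4T1 against 67NR medium (diamonds). Coloured symbols passed an adjusted p of 0.05 over 15055 genes, white symbols did not, grey symbols (Fth1 in 4T1 medium) are a description without a test, and Steap4 is not drawn because it had 3 counts in control medium. Slc40a1 lies at -2.01 for 4T1 against control and Tfrc at -1.60 for 67NR against control, while Fth1 and Steap1 lie at 1.34 and 1.15 for 4T1 against control.

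Levels can be compared between genes only per length. Divided by the length of the principal transcript, Fth1 stood highest, at 3905 CPM per kb in 4T1 medium, 1953 in 67NR medium and 1541 in control medium, followed by the summed light chain at 643, 763 and 868 CPM per kb in the same order of media. Steap1 was next in 4T1 medium (94.3 CPM per kb, against 27.1 in 67NR and 42.3 in control medium), and Hmox1 next in the others (46.9 in 67NR and 43.7 in control medium, 44.4 in 4T1 medium), although in control medium its libraries overlapped those of Steap1. Slc11a2, Steap2, Tfrc and Steap4 lay at 34.4, 25.7, 19.6 and 19.3 CPM per kb in 4T1 medium. Of these 4, Tfrc and Steap4 were closer than the spread of their libraries. In 67NR and control medium Steap4 was the lowest of all, at 0.0892 and 0.0282 CPM per kb. Ferroportin was at 0.911 CPM per kb in 4T1 medium, 4.67 in 67NR medium and 3.58 in control medium.

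The genes with the most similar pattern were taken as those at the smallest distance in centred log2 CPM over the 6 libraries, among 9815 other genes of at least 10 CPM. For Fth1 these were Tmem176a, Ppp1r15a and Relb (distances 0.133 to 0.151), and for Slc40a1, at a larger distance, Pcolce2, Rspo2 and Cdc42ep3 (0.378 to 0.502). For Tfrc they were Spag5, Trip13 and Ckap2 (0.198 to 0.259), and for Steap1 Hbegf, Lgals3 and Hmga1b (0.232 to 0.294). Slc11a2 lay nearest to Ptpn1, Naa25 and Slc6a9 and Steap2 nearest to Rbpj-ps3, Naa25 and Gng12, so that Naa25 stands in both. Steap4 lay nearest to C3, Ly6c1 and Ly6a (0.856 to 0.999), and Hmox1 to Smug1, Mllt1 and Prkra (0.0303 to 0.0585). Before the log2, 0.5 CPM was added to each level, which is more than Steap4 had in any 67NR or control library. Its pattern outside 4T1 medium thus rests largely on that offset.

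Around these 10, a list of 59 other genes of iron and haem handling was taken, of which 51 were tested. Among them, Hp, Hephl1, Cyb561 and Hpx passed the filter on low counts only through the 4T1 libraries, and Flvcr2 only through the 67NR libraries. Where these are called, the call is a description, and the counts and shares below include them. The list had 14 higher and 7 lower in 4T1 against control medium, with a median log2 fold change of 0.10. That is 41.2% of those tested, near the 39.1% of all genes. In 67NR against control medium 7 were higher and 5 lower (23.5%, below the 27.6% of all genes, median 0.01), and in 4T1 against 67NR medium 18 were higher and 12 lower (58.8%, beside 43.4% of all genes, median 0.11). The count fell to 7 without 67NR replicate 1, 6 without 67NR replicate 2 and 7 without control replicate 2 for 67NR against control medium, and to 16 and 17 without 67NR replicate 1 and 2 for 4T1 against 67NR medium, where the DESeq2 Wald test called 19 (37.3%, beside 34.2% of all genes). Of the 7 regulators of iron balance, 1 was higher and 1 lower in 4T1 against control medium (28.6%, beside 39.1% of all genes). None passed in 67NR against control medium, beside 27.6% of all genes. In 4T1 against 67NR medium 3 regulators were higher and 2 lower (71.4%, beside 43.4% of all genes). Aco1 and Ireb2, which encode the iron regulatory proteins, passed in no comparison, with log2 values of -0.04 and -0.12 for 4T1 against control, 0.03 and -0.09 for 67NR against control and -0.07 and -0.03 for 4T1 against 67NR (SE 0.06 and 0.08). Fbxl5, the iron sensor that marks Ireb2 protein for decay, was at 0.29 for 4T1 against control (SE 0.11, edgeR adjusted p = 0.0525) and higher in 4T1 than in 67NR medium (0.32, SE 0.11, edgeR adjusted p = 0.0252). Ncoa4, the receptor that delivers ferritin to lysosomes, was at -0.22 for 4T1 against control (SE 0.08, edgeR adjusted p = 0.0556) and lower in 4T1 than in 67NR medium (-0.24, SE 0.08, edgeR adjusted p = 0.0305).

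Larger changes stood among transport and binding genes. Lcn2, whose protein binds iron-loaded siderophores, had 2563 and 2662 CPM in 4T1 medium, 1.76 and 2.34 CPM in 67NR medium, and 2.02 and 1.86 CPM in control medium (log2 10.38 for 4T1 against control, SE 0.12, edgeR adjusted p = 8.19e-15). Slc39a14, the ZIP14 importer of iron not bound to transferrin, had 422 and 483 CPM in 4T1 medium, 68.4 and 68.5 CPM in 67NR medium, and 83.6 and 81.5 CPM in control medium. It rose in 4T1 medium (log2 2.45, SE 0.08, edgeR adjusted p = 5.88e-11) and was lower in 67NR medium than in control medium (-0.27, SE 0.08, edgeR adjusted p = 0.0189). Slc22a17, the lipocalin receptor, was level in 4T1 medium (0.01, SE 0.14, edgeR adjusted p = 0.96) and rose in 67NR medium (0.69, SE 0.13, edgeR adjusted p = 0.00157), while Exoc6, needed for transferrin cycling in red cell precursors, fell in both (log2 -0.80 and -0.72, SE 0.16 each, edgeR adjusted p = 0.00191 and 0.00418). Trf, transferrin itself, had at most 11 counts in any library and was not tested.

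Ceruloplasmin (Cp) and hephaestin (Heph) are the ferroxidases that work with ferroportin at the cell surface. Cp had 1389 and 1557 CPM in 4T1 medium, 498 and 497 CPM in 67NR medium, and 199 and 194 CPM in control medium, and rose in both tumour media (log2 2.91, SE 0.07, edgeR adjusted p = 1.16e-11 in 4T1, and 1.34, SE 0.07, edgeR adjusted p = 5.44e-08 in 67NR). Heph had 3.58 and 3.10 CPM in 4T1 medium, 11.8 and 10.4 CPM in 67NR medium, and 4.21 and 5.13 CPM in control medium. It rose in 67NR against control medium (log2 1.27, SE 0.16, edgeR adjusted p = 6.43e-05) and was lower in 4T1 than in 67NR medium (-1.74, SE 0.17, edgeR adjusted p = 2.39e-06). Hp, haptoglobin, which captures free haemoglobin, had 2915 and 3385 counts in 4T1 medium, 10 and 14 counts in 67NR medium, and 6 and 0 counts in control medium. Hepcidin, the hormone that removes ferroportin from the surface, was not detected: Hamp, Hamp2 and the coreceptor Hjv had 0 counts in all 6 libraries, as did mitochondrial ferritin, Ftmt.

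Of 12 tested genes of mitochondrial iron and iron-sulphur assembly, 3 rose in 4T1 against control medium and none fell, or 25%, below the 39.1% of all genes. They were the mitochondrial iron importers Slc25a37 (log2 1.14, SE 0.08) and Slc25a28 (0.90, SE 0.10) and the chaperone Hspa9 (0.23, SE 0.06), named after their values were seen. Of 8 genes of haem synthesis, 2 rose and 2 fell (50%), and of 10 of haem use and export, 2 rose and 2 fell (40%), beside the same 39.1% of all genes. Hp, which passed the filter only through the 4T1 libraries, is 1 of the 2 haem use genes that rose. In 67NR against control medium these 3 lists had 1 higher and 2 lower, 1 higher and 1 lower, and 1 higher and none lower, or 25%, 25% and 10%, all below the 27.6% of all genes.

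**Figure D4:**
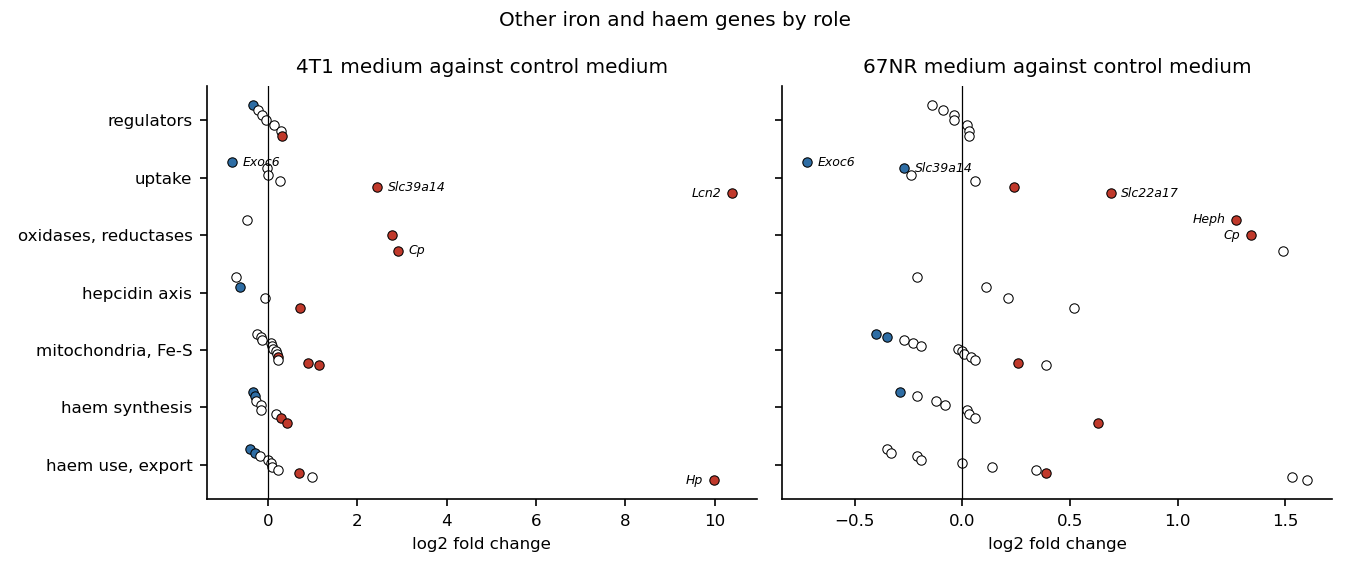
Log2 fold change of the tested genes of iron and haem handling outside the 10, by role, for 4T1 against control medium and for 67NR against control medium, on axes of different range. Red and blue points passed an adjusted p of 0.05 over all genes as higher and lower, open points did not, and Hephl1, with 9 and 10 counts in 4T1 medium and 0 elsewhere, is not drawn. Lcn2 and Hp lie near a log2 value of 10 in 4T1 medium, and in 67NR medium Cp and Heph are highest among those that passed. Hp and Cyb561 are red in 4T1 medium but passed the filter on low counts only through the 4T1 libraries. Those points are a description.

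Fth1, Ftl1, Hmox1 and Slc40a1 are known targets of NRF2, the transcription factor of the oxidative stress response. Of 18 other NRF2-pathway genes, 6 were higher and 5 lower in 4T1 against control medium, 2 higher and 3 lower in 67NR against control medium, and 8 higher and 5 lower in 4T1 against 67NR medium, with medians of 0.02, -0.02 and 0.10. These are 61.1%, 27.8% and 72.2% of the list, beside 39.1%, 27.6% and 43.4% of all genes, so that for 67NR against control medium the share is at the background. The count in 67NR against control medium was 8 when either 4T1 library was left out. Nfe2l2, which encodes NRF2, had 226 and 231 CPM in 4T1 medium, 119 and 119 CPM in 67NR medium, and 120 and 120 CPM in control medium (log2 0.93 for 4T1 against control, SE 0.06, edgeR adjusted p = 8.49e-08). Txnrd1, thioredoxin reductase, rose in 4T1 medium (0.44, SE 0.06, edgeR adjusted p = 8e-05) and fell in 67NR medium (-0.42, SE 0.06, edgeR adjusted p = 0.000238). The glutathione transferases Gsta4 and Gstm1 fell in 4T1 medium (log2 -1.29 and -0.44, SE 0.18 and 0.07, edgeR adjusted p = 9.09e-05 and 0.000274). The 18 genes moved in both directions in each comparison.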

How the data were processed

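Per the labels' protocols, poly(A) RNA was taken from 500 ng of total RNA, made into directional libraries and sequenced on an Illumina NextSeq500. The authors deposited raw counts per gene symbol as whole numbers. Per the submitters' processing notes these came from Subread on mm10, with DESeq2 1.32.0 used afterwards. For the aligner, the strand setting and reads with several matches, the sources used here give nothing, and overlapping genes and near-identical copies are uncertain. A second table by the authors, filtered to 14629 genes, repeats their values. The unfiltered one, with 55367 symbols, was used, of which 53292 matched GENCODE M21 (GRCm38, the assembly of mm10).

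In edgeR 4.0.16, filterByExpr with a minimum count of 10 and a minimum total of 15 chose the genes, and TMM scaled the libraries. A quasi-likelihood fit of all 6 libraries by medium (3 residual and 9.62 prior degrees of freedom, biological coefficient of variation 5.81%) gave F tests with Benjamini-Hochberg adjustment over 15055 genes at 0.05, and standard errors were the absolute log2 fold change over the square root of F. A fold against 3 counts or fewer is given as a ratio with a 95% interval. Pairs within a medium had a correlation across genes of at least 0.994, pairs between media of at most 0.983, and none agreed within sampling noise. The code was tested on simulated counts. R 4.3.3, Python 3.11.15, Biopython 1.88 and matplotlib 3.10.9 were used.

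The members, the lists and the alternatives were chosen with earlier results of these data known. Named were all 10 members, ferritin copies, 3 genes of nearest pattern per member of at least 10 CPM, Ireb2, Aco1, Fbxl5, Ncoa4, Trf, Lcn2 and Nfe2l2, and up to 4 genes per list and comparison with the largest called folds at 5 CPM or more. Hephl1, Cyb561, Hpx and Flvcr2 were named for how they passed the filter. Tried besides were scaling by DESeq2 size factors or by totals, testing unfiltered genes or those of the filtered table, the replicate number as a block, fits of the 4 libraries compared, the Wald test of DESeq2 1.42.0 and each library left out in turn. Summing the ferritin copies was a choice made with the data in view.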

Additional observations from a re-analysis of the deposited data

How the results depend on the processing

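Counts of the 10 genes in this section include Fth1 and Steap4, whose values in 4T1 medium are a description. Without them, 6 of 8 passed in 4T1 against control medium, beside 39.1% of all genes. In 4T1 against 67NR medium 5 of 8 did, beside 43.4%. Counts of other iron genes include those that passed the filter only through the libraries of a single medium. In 4T1 against 67NR medium the number of the 10 genes called was 7, or 6 of 9 on genes of the filtered table, which lacks Steap4. In 4T1 against control medium it was 8, or 6 of 9 on those genes. It was 7 with scaling by totals, in a fit of the 4 libraries compared and by the DESeq2 Wald test (29.3% of all genes), each without Ftl1. For 67NR against control medium it was 3, or 5 with no filter, 5 in a fit of the 4 libraries compared and 3 to 5 with 1 library left out. Other iron genes called in 67NR against control medium were 12 (6 to 17 with 1 library left out), and in 4T1 against 67NR medium 30, or 19 by the DESeq2 Wald test (37.3% of the list, beside 34.2% of all genes by that test and 43.4% by edgeR) and 16 to 28 with 1 library left out. NRF2-pathway genes called in 67NR against control medium were 5, or 8 in the fit of 4 libraries and 5 to 8 with 1 library left out. The ferritin ratio from the Fth1 and Ftl1 rows averaged 415 in 4T1, 203 in 67NR and 124 in control medium (400 to 430, 183 to 224 and 102 to 146 with 1 library left out). With the copies of ferritin name added it was 5.83, 2.46 and 1.71, and with further copies added 6.14 to 6.27, 2.56 to 2.68 and 1.76 to 1.87, because most light-chain counts stand on the copies' rows.

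With the replicate number as a block (replicate block), the 10 genes had 8, 4 and 7 calls in the order of the report, the other iron genes 22, 13 and 30, and the NRF2-pathway genes 12, 5 and 13. Deviations of same-numbered libraries correlated at 0.0772, 0.0164 and -0.0513, so the numbers are not taken to pair the samples. For single genes, the log2 value changed sign when some libraries were left out for Ftl1 in 4T1 against 67NR (0.12 without 67NR replicate 2, range -0.19 to 0.12), Hmox1 in 4T1 against control (-0.01 without 4T1 replicate 1 and -0.02 without control replicate 2, range -0.02 to 0.05) and Steap3 in 67NR against control (-0.12 without 67NR replicate 2 and -0.11 without control replicate 2, range -0.12 to 0.73). None of these passed the threshold, with all libraries or without those named, and the cause was not tested. Outside the left-out libraries, 202 of 212 values of single genes kept their direction and side of the threshold, as did 163 of 180 with a library left out. Depth limits Steap3 and Steap4 outside 4T1 medium, and 2 libraries a group limit every test.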
